A study of Homo sapiens with 12 samples.

Results

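Messenger RNA of 10 genes of the ATF4 stress response (ATF4, ATF3, DDIT3, TRIB3, CHAC1, ASNS, SESN2, VLDLR, DDIT4 and PSAT1) was followed in RCC4 cells after knockdown of HIF-1α, HIF-2α or both. The genes were taken by symbol from the 23106 symbols of the count tables, and all 10 were found and passed the filter on low counts. The set was chosen with earlier results of all 12 libraries known, and which values chose each gene is not recorded. TRIB3 was taken as selected on its fall with HIF2A siRNA against control siRNA, DDIT4 and VLDLR on their fall with HIF1A siRNA against control siRNA, and the other 7 as textbook genes of the pathway. Values of TRIB3, DDIT4 and VLDLR in comparisons that share libraries with those falls are given as descriptions. Calls of these genes in such comparisons appear in counts, figures and checks of the processing, and nothing is read from them. The p-values of TRIB3, DDIT4 and VLDLR in the remaining comparison come from the fit over all genes. Whether the choice had used those libraries too is not known, so these p-values are not independent evidence.

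RCC4 is an established line from a human clear cell renal carcinoma that has lost VHL, the ubiquitin ligase component that marks HIF-α subunits for degradation, so both HIF-α proteins are present in normal oxygen. Cells were reverse transfected with siRNA pools at 2 nM in total: 2 nM control siRNA, 1 nM HIF1A siRNA with 1 nM control siRNA, 1 nM HIF2A siRNA (against EPAS1, the gene of HIF-2α) with 1 nM control siRNA, or 1 nM of each HIF siRNA (the double knockdown). RNA was taken after 48 h from 3 replicates of each condition, which makes 12 libraries of polyadenylated RNA from 1 cell line. The comparisons ask which of these genes depend on HIF-1α, on HIF-2α or on both, and whether TRIB3 and DDIT4 moved with the other targets of ATF4 or apart from them.

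ATF4 is a basic leucine zipper transcription factor at the end of the integrated stress response. Amino acid shortage, unfolded protein, heme deficiency or viral RNA activate kinases that phosphorylate eIF2α, which lowers general translation and raises translation of the ATF4 mRNA through its upstream open reading frames. The ATF4 protein binds C/EBP-ATF response elements (CARE) with a partner such as C/EBP or CHOP and induces genes of amino acid synthesis, transport and tRNA charging together with other stress regulators. Because control is largely translational, the level of ATF4 mRNA does not measure ATF4 protein. HIF-1 and HIF-2 are dimers of an α subunit with ARNT that bind hypoxia response elements (HRE), whose core is ACGTG or GCGTG.

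Libraries held 13263168 to 20451433 counts, with normalization factors from 0.98 to 1.02. HIF1A mRNA was 120, 58.2 and 112 CPM (counts of a gene scaled to the size of its library) in the control libraries, 15 to 22.2 CPM with HIF1A siRNA and 24.2 to 32.2 CPM in the double knockdown. EPAS1 mRNA was 138 to 171 CPM with control siRNA, 9.16 to 11.9 CPM with HIF2A siRNA and 7.01 to 11.3 CPM in the double knockdown. With HIF1A siRNA alone EPAS1 mRNA was 101 to 134 CPM, below every control library. That log2 fold change of -0.47 (SE 0.15, adjusted p = 0.28, edgeR) was not called. Each targeted mRNA was thus lowest where its siRNA had been used, with no overlap with the other conditions. HIF1A mRNA was higher in the double knockdown than with HIF1A siRNA alone by 0.66 on the log2 scale (SE 0.21, adjusted p = 0.182, edgeR). Of 10 markers of renal epithelial carcinoma, 9 were over 1 CPM in every condition, with LRP2 at or near 0. Of 4 leukocyte markers, 3 were at 0 in every library, PTPRC and CD3E among them, and CD68 was over 1 CPM in every condition, with a summed level of 32.6 to 65.1 CPM over the libraries. Among 4 fibroblast or pericyte markers, summed levels ranged from 21.4 to 84.5 CPM over all libraries.

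RefSeq promoters (GRCh38.p14) of all 10 genes were searched on both strands for the CARE letters TGATGNAA and for the HRE core letters ACGTG or GCGTG in the 250 bases before the most upstream RefSeq start, with overlapping matches counted separately. The windows of TRIB3 and DDIT4, the genes that the comparisons turn on, are shown beside those of ASNS and CHAC1, which carry CARE letters. Capitals mark HRE core letters in the TRIB3 and DDIT4 windows, and CARE or HRE core letters in the ASNS and CHAC1 windows.
TRIB3 (chr20:381045-381294, plus strand): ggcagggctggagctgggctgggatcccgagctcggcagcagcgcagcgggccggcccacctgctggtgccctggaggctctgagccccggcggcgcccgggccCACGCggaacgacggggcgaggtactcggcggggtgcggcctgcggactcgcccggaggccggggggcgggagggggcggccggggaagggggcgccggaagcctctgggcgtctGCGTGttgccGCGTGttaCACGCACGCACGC
DDIT4 (chr10:72273674-72273923, plus strand): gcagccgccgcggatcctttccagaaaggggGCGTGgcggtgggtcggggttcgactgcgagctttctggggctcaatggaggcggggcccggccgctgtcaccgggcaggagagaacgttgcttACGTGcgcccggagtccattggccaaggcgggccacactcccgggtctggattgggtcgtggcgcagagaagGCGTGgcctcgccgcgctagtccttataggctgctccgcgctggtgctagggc
ASNS (chr7:97872409-97872658, minus strand): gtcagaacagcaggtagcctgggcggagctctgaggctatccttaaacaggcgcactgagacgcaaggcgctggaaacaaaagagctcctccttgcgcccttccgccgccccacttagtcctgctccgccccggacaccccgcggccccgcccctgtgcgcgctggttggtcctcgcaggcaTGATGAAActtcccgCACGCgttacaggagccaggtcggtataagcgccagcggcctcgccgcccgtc
CHAC1 (chr15:40953221-40953470, plus strand): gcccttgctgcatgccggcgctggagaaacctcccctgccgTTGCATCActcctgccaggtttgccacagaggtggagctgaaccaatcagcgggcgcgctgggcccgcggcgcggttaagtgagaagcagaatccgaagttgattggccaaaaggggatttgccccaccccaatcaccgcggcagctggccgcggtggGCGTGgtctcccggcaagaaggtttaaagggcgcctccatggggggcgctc
The DDIT4 window held 3 HRE core matches, the TRIB3 window 6 and the VLDLR window 5. The ATF4 window held 2 that overlap, and the DDIT3, ASNS and CHAC1 windows 1 each. CARE letters were found in the windows of ASNS, 68 to 61 bases before the start, of CHAC1, 209 to 202 bases before it, and of ATF3, 191 to 184 bases before it. Over 35116 RefSeq promoter windows of the same length, 3.14% held CARE letters, 43.2% at least 1 HRE core and 7.76% at least 3. The SESN2 and PSAT1 windows held neither set of letters. A match of letters is a description and not a site in use.

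**Figure D1:**
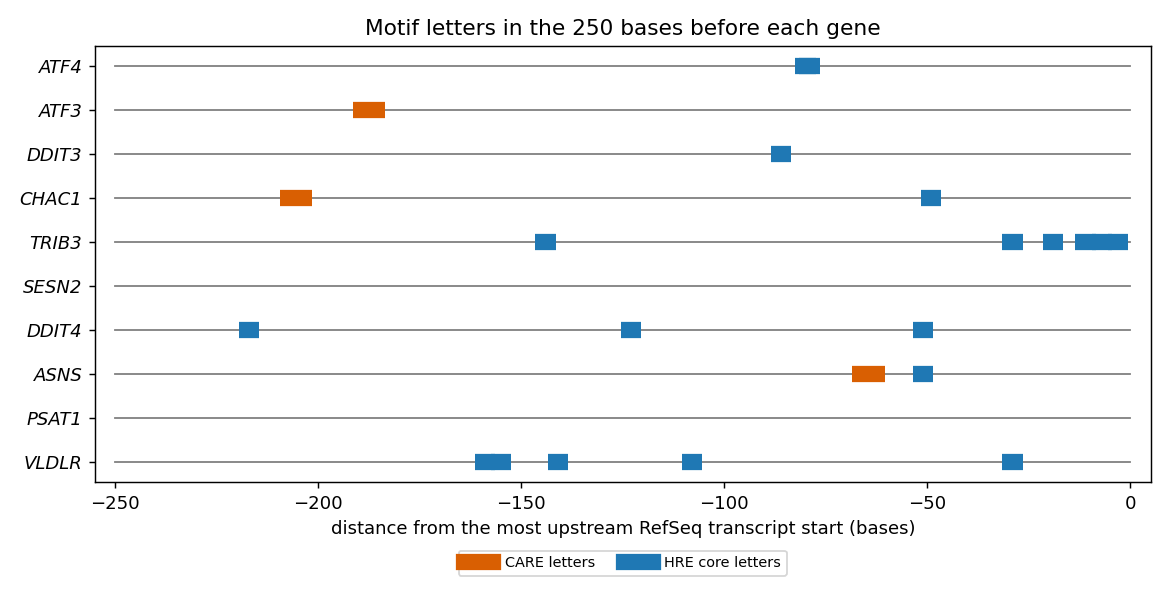
Positions of CARE letters (orange) and HRE core letters (blue) in the 250 bases before the most upstream RefSeq start of each gene, as distance from that start in bases. CARE letters stand in ATF3, CHAC1 and ASNS, and 3 or more HRE cores in TRIB3, DDIT4 and VLDLR. ATF4, DDIT3, CHAC1 and ASNS hold 1 or 2 HRE cores.

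TRIB3 and DDIT4 had the lowest log2 fold changes of the 10 genes in the double knockdown against control siRNA. That comparison shares control libraries with the falls for which both were taken as chosen, so their places there are a description. TRIB3 mRNA was lower wherever HIF2A siRNA was used and lowest in the double knockdown, while DDIT4 mRNA was lower wherever HIF1A siRNA was used and also lowest in the double knockdown. PSAT1 was the only one of the 10 genes called higher in a comparison of the double knockdown, and it was higher in all 3. ATF4 mRNA itself was not called in any comparison. Bulk RNA cannot tell fewer cells of a kind from less RNA per cell.

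**Figure D2:**
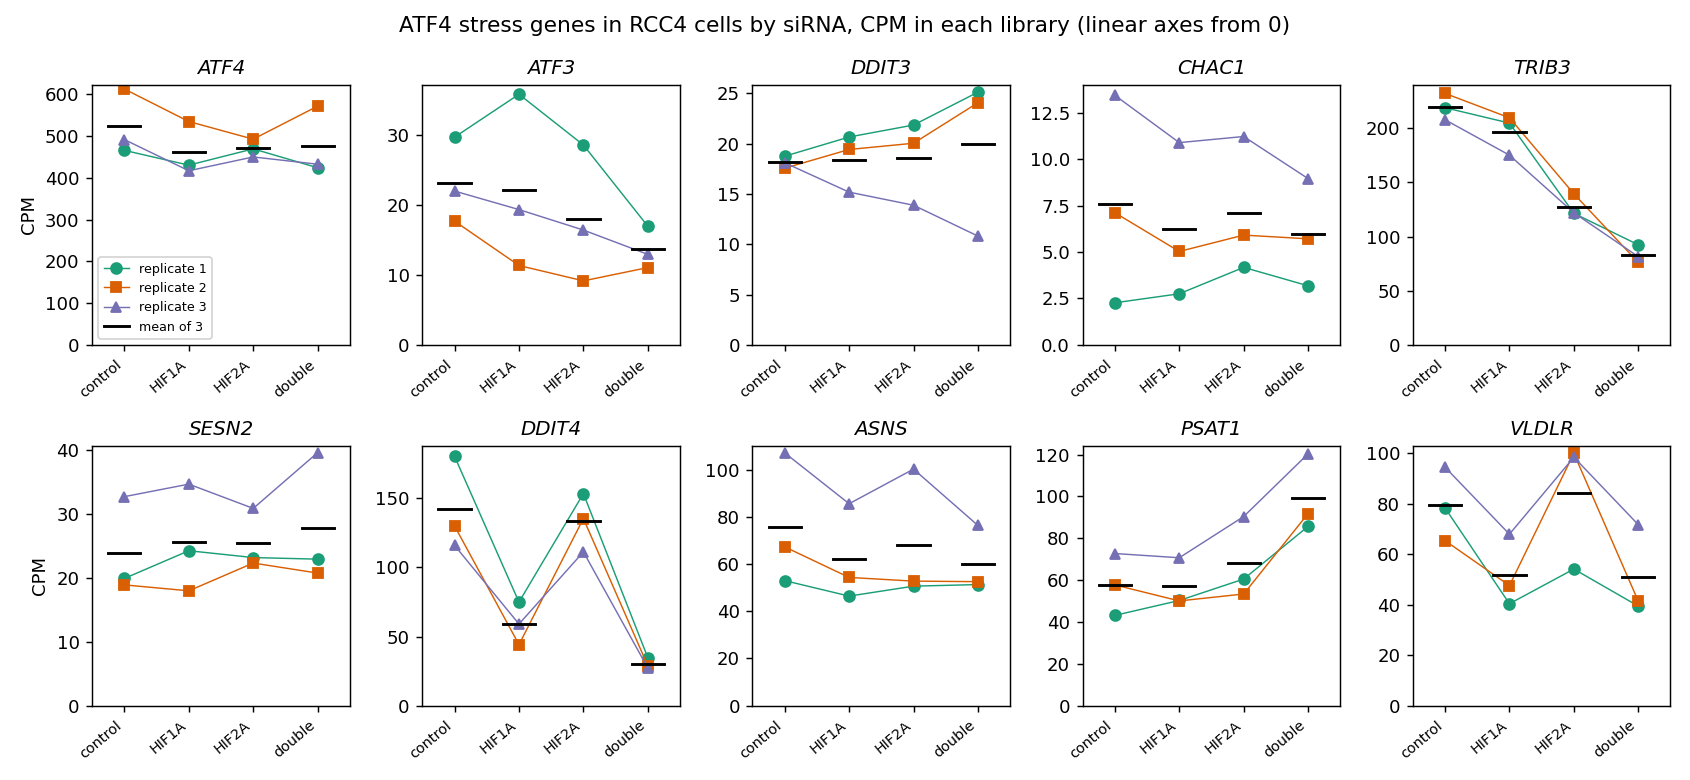
CPM of each gene (linear axes from 0) by siRNA condition, with a marker and line for each of the 3 replicate numbers and a black bar at the mean of 3 libraries. TRIB3 lies between 76.0 and 92.4 CPM in the double knockdown against 208 to 232 CPM with control siRNA, and DDIT4 between 27.2 and 34.7 CPM against 116 to 180 CPM.

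ATF4 mRNA was the most abundant of the 10, at 466, 612 and 491 CPM with control siRNA. It was 430, 534 and 417 CPM with HIF1A siRNA, 469, 492 and 450 CPM with HIF2A siRNA, and 424, 571 and 432 CPM in the double knockdown. The conditions overlapped throughout, and replicate 2 was the highest library in each condition. In the double knockdown ATF4 differed from control siRNA by -0.14 on the log2 scale (SE 0.10, adjusted p = 0.4, edgeR), with an interval of 2 SE from -0.33 to 0.05. Against HIF1A siRNA the log2 fold change was 0.04 (SE 0.10) and against HIF2A siRNA 0.00 (SE 0.10), neither of them called.

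ATF3, a stress-induced transcription factor that ATF4 induces and that represses or activates by its partner, was 29.7, 17.7 and 22.0 CPM with control siRNA. It was 35.9, 11.4 and 19.4 CPM with HIF1A siRNA, 28.6, 9.16 and 16.4 CPM with HIF2A siRNA, and 17.0, 11.1 and 13 CPM in the double knockdown. Every double-knockdown library lay below every control library, and replicate 1 was the highest library in all 4 conditions. The fall in the double knockdown was 0.76 on the log2 scale against control siRNA (log2 fold change -0.76, SE 0.19, adjusted p = 0.0226, edgeR), at 57.8 to 63.5% of the paired control. Against HIF1A siRNA the log2 fold change was -0.59 (SE 0.20, adjusted p = 0.195, edgeR) and against HIF2A siRNA -0.30 (SE 0.20, adjusted p = 0.45). The call against control siRNA was lost without replicate number 1 or 3, without control replicate 2 or 3, without double-knockdown replicate 1 or 3, and without the replicate block, with adjusted p up to 0.614.

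DDIT3 encodes CHOP, a partner of ATF4 that is linked to cell death in prolonged stress. It was 18.8, 17.6 and 18.1 CPM with control siRNA and 25.1, 24.1 and 10.8 CPM in the double knockdown. Replicates 1 and 2 were higher and replicate 3 lower in every siRNA condition than in their paired control. The log2 fold change of 0.06 (SE 0.20, adjusted p = 0.872, edgeR) in the double knockdown averaged pair values of 0.41, 0.44 and -0.72, and no comparison called DDIT3.

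TRIB3 encodes a tribbles pseudokinase that ATF4 and CHOP induce, and that binds AKT and restrains ATF4 and CHOP in turn. With control siRNA it stood at 219, 232 and 208 CPM (220 ± 12.1, SD, n = 3). Libraries with HIF1A siRNA held 205, 210 and 175 CPM, those with HIF2A siRNA 121, 139 and 122 CPM, and the double knockdown 92.4, 76.0 and 81.4 CPM. All 6 libraries with HIF2A siRNA lay below all 6 without it, and the 3 double-knockdown libraries below the 3 with HIF2A siRNA alone.

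TRIB3 was taken as chosen for its fall with HIF2A siRNA alone, a log2 fold change of -0.78 (SE 0.11), at 55.5 to 60.1% of the paired control. TRIB3 fell in the double knockdown against HIF1A siRNA by 1.23 on the log2 scale (SE 0.11, adjusted p = 2.38e-05, edgeR), to between 36.4 and 46.6% of the paired library. This call held in all 21 alternative settings, with log2 fold changes from -1.32 to -1.12. As descriptions, TRIB3 changed by -0.16 (SE 0.11) on the log2 scale with HIF1A siRNA alone and by -1.40 (SE 0.11) in the double knockdown against control siRNA. Against HIF2A siRNA alone, the double knockdown had TRIB3 lower by a log2 fold change of -0.61 (SE 0.11), at 54.7 to 76.2% of the paired library.

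DDIT4 encodes REDD1, which inhibits mTORC1 through the TSC complex and is induced by hypoxia as well as by ATF4. It was 180, 130 and 116 CPM with control siRNA and 154, 135 and 111 CPM with HIF2A siRNA, which overlapped. It was 74.9, 44.2 and 59.1 CPM with HIF1A siRNA and 34.7, 28.8 and 27.2 CPM in the double knockdown. The 6 libraries with HIF1A siRNA lay below the 6 without it, and the 3 double-knockdown libraries lay below the 3 with HIF1A siRNA alone.

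DDIT4 was taken as chosen for its fall with HIF1A siRNA alone, a log2 fold change of -1.25 (SE 0.15), at 34.2 to 51.1% of the paired control. DDIT4 fell in the double knockdown against HIF2A siRNA by 2.14 on the log2 scale (SE 0.14, adjusted p = 1.71e-07, edgeR), to 21.6 to 24.8% of the paired library. All 21 alternative settings kept the call, with log2 fold changes from -2.20 to -2.03. As descriptions, the log2 fold change of DDIT4 was -0.07 (SE 0.14) with HIF2A siRNA alone and -2.22 (SE 0.14) in the double knockdown against control siRNA. It was -0.96 (SE 0.13) in the double knockdown against HIF1A siRNA, at 46.5 to 65.6% of the paired library.

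SESN2 encodes sestrin 2, a leucine-binding stress protein that holds mTORC1 in check through GATOR2. It was 19.9, 18.9 and 32.7 CPM with control siRNA and 22.9, 20.8 and 39.6 CPM in the double knockdown, with replicate 3 the highest library in all 4 conditions. The log2 fold change of 0.21 (SE 0.14, adjusted p = 0.368, edgeR) had an interval of 2 SE from -0.06 to 0.48. SESN2 was not called in any comparison.

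PSAT1, the aminotransferase of the serine synthesis pathway, was 43.1, 57.7 and 72.7 CPM with control siRNA and 50.3, 50.1 and 70.7 CPM with HIF1A siRNA. It was 60.5, 53.4 and 90.4 CPM with HIF2A siRNA and 85.7, 91.8 and 120 CPM in the double knockdown. The double knockdown lay above every control and HIF1A siRNA library and overlapped HIF2A siRNA, where replicate 3 was high. PSAT1 rose in the double knockdown by a log2 fold change of 0.79 against control siRNA (SE 0.12, adjusted p = 0.000614, edgeR) and 0.80 against HIF1A siRNA (SE 0.12, adjusted p = 0.00216). Against HIF2A siRNA the rise was 0.56 (SE 0.12, adjusted p = 0.0141, edgeR), and all 3 pairs were higher in each of these comparisons. The 3 calls were lost without the replicate block, where adjusted p lay between 0.215 and 0.824. The call against HIF2A siRNA was also lost with only the 6 compared libraries in the fit, without replicate number 1 or 3, and without double-knockdown replicate 1 or 2, and that against HIF1A siRNA without all 4 libraries of replicate 3 (adjusted p = 0.201).

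ASNS, which makes asparagine from aspartate and glutamine, was 53, 67.3 and 107 CPM with control siRNA and 51.3, 52.6 and 76.4 CPM in the double knockdown. All 3 pairs were lower in the double knockdown, by a log2 fold change of -0.30 (SE 0.11, adjusted p = 0.117, edgeR), which was not called. CHAC1, a glutathione-degrading enzyme induced through ATF4, was the least abundant of the 10, at 2.27, 7.12 and 13.5 CPM with control siRNA and 3.18, 5.72 and 8.96 CPM in the double knockdown. Its counts ranged from 37 to 224 per library. Replicate 1 was the lowest and replicate 3 the highest library in all 4 conditions for both genes, and neither was called in any comparison.

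VLDLR, the very low density lipoprotein receptor, has been described as induced through ATF4 and through HIF. It was 78.3, 65.4 and 94.5 CPM with control siRNA, 40.4, 47.5 and 67.9 CPM with HIF1A siRNA, 54.1, 99.9 and 98.4 CPM with HIF2A siRNA, and 39.4, 41.4 and 71.7 CPM in the double knockdown. It was taken as chosen for its fall with HIF1A siRNA alone, a log2 fold change of -0.64 (SE 0.18). VLDLR fell in the double knockdown against HIF2A siRNA by 0.74 on the log2 scale (SE 0.17, adjusted p = 0.0243, edgeR), lower in 3 of 3 pairs although the conditions overlapped across pairs. Without HIF2A replicate 2 the log2 fold change was -0.47 (adjusted p = 0.072, edgeR). The call was also lost without double-knockdown replicate 1 or 2 (adjusted p = 0.12 and 0.165), without replicate number 2 or 3, with only the 6 compared libraries in the fit, and without the replicate block (adjusted p = 0.696).

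**Figure D3:**
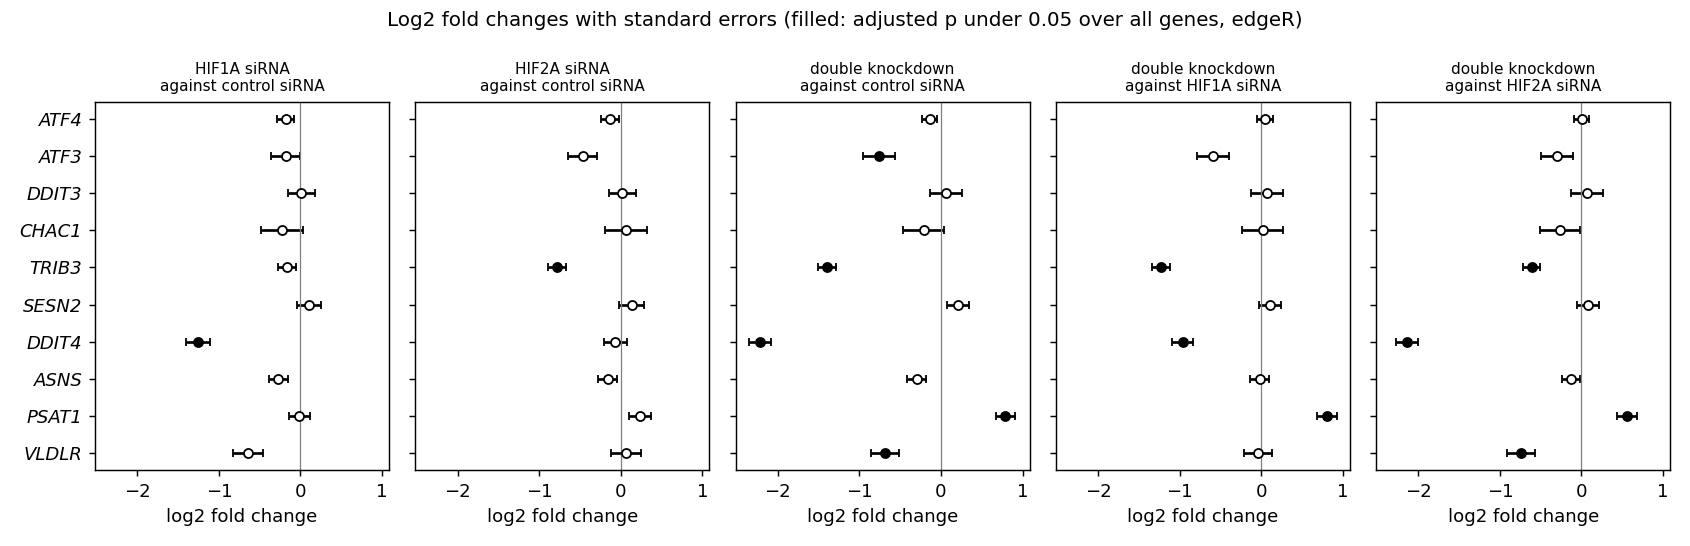
Log2 fold change of each gene in 5 comparisons, with bars of 1 standard error from the edgeR fit, and filled points where the adjusted p over all genes tested was under 0.05. TRIB3 and DDIT4 are filled on the lower side in all 3 double-knockdown panels, VLDLR lies below TRIB3 against HIF2A siRNA, and PSAT1 is the only filled point on the higher side of those panels. Filled points of TRIB3, DDIT4 and VLDLR in comparisons that share libraries with their choice are descriptions.

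Counts of the 10 genes past an adjusted p of 0.05 are read beside the share of all genes tested. HIF1A siRNA against control siRNA called 1 of 10 (DDIT4), with 1.17% of 12830 genes called. HIF2A siRNA against control siRNA called 1 of 10 (TRIB3), with 0.0857% of genes called. HIF1A siRNA against HIF2A siRNA called DDIT4 lower and TRIB3 higher, with 1.5% of genes called. These 3 comparisons share libraries with the falls for which the genes were taken as chosen, and nothing is read from their counts.

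In the fit of all 12 libraries, the double knockdown against control siRNA called 4 of 10 lower (DDIT4, TRIB3, ATF3 and VLDLR) and PSAT1 higher, with 10.3% of 13000 genes called. Against HIF1A siRNA it called TRIB3 and DDIT4 lower and PSAT1 higher, with 1.4% of genes called. Against HIF2A siRNA it called DDIT4, VLDLR and TRIB3 lower and PSAT1 higher, with 4% of genes called. Each of these counts includes TRIB3, DDIT4 or VLDLR, taken as chosen for a fall in these libraries, and is a description. The median log2 fold change of the 10 genes was -0.26, 0.00 and -0.20 in the 3 comparisons, respectively, beside medians of 0.00, 0.01 and 0.00 over all genes tested.

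The interaction of the siRNAs, the change with HIF2A siRNA in cells with HIF1A siRNA less that in cells with control siRNA, called 0 of 10 and 0% of 13000 genes with edgeR. An unadjusted p under 0.05 was met by 3 of 10 and by 318 genes, and DESeq2 called 11 genes and 1 of 10. The interaction was -0.89 (SE 0.18) for DDIT4, -0.45 (SE 0.15) for TRIB3 and 0.58 (SE 0.17) for PSAT1 on the log2 scale, with the same sign in 3 of 3 pairs for each. It contains the single-siRNA and control libraries on which DDIT4 and TRIB3 were taken as chosen, so their values are descriptions.

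Whether TRIB3 and DDIT4 moved with other ATF4 targets was described in each replicate pair beside 44 tested genes of a list of 48 targets that excludes the 10. TRIB3 with HIF2A siRNA and DDIT4 with HIF1A siRNA, each against control siRNA, were taken as chosen for those falls. Their places in those comparisons follow from the choice, and nothing is read from them. The median log2 ratio of the 44 targets lay between -0.15 and 0.14 in every pair of 5 comparisons. With HIF2A siRNA against control siRNA, TRIB3 differed from the median target by -0.74, -0.87 and -0.75 in the 3 pairs, and 0 of 44 targets had a lower mean ratio. In the double knockdown against HIF1A siRNA, TRIB3 differed from it by -1.16, -1.41 and -1.20, again with 0 of 44 lower. Against HIF2A siRNA, TRIB3 in the double knockdown lay closer to the other targets, at -0.42, -0.72 and -0.52 from the median target, with 3 of 44 lower. DDIT4 differed from it by -1.15, -1.48 and -0.83 with HIF1A siRNA against control siRNA, and by -2.16, -2.06 and -1.95 in the double knockdown against HIF2A siRNA, with 0 of 44 lower in both. Against HIF1A siRNA, DDIT4 in the double knockdown differed from it by -1.12, -0.56 and -1.21, also with 0 of 44 lower. TRIB3 with HIF1A siRNA alone differed from the median target by -0.06 ± 0.06 (SD, n = 3 pairs) and DDIT4 with HIF2A siRNA alone by -0.08 ± 0.04 (SD, n = 3 pairs). PSAT1 stood apart on the other side in the double knockdown, 1.09, 0.74 and 0.79 above the median target against control siRNA, with 44 of 44 targets lower. ATF4 itself stayed within 0.12 of the median target in all 3 pairs of that comparison.

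**Figure D4:**
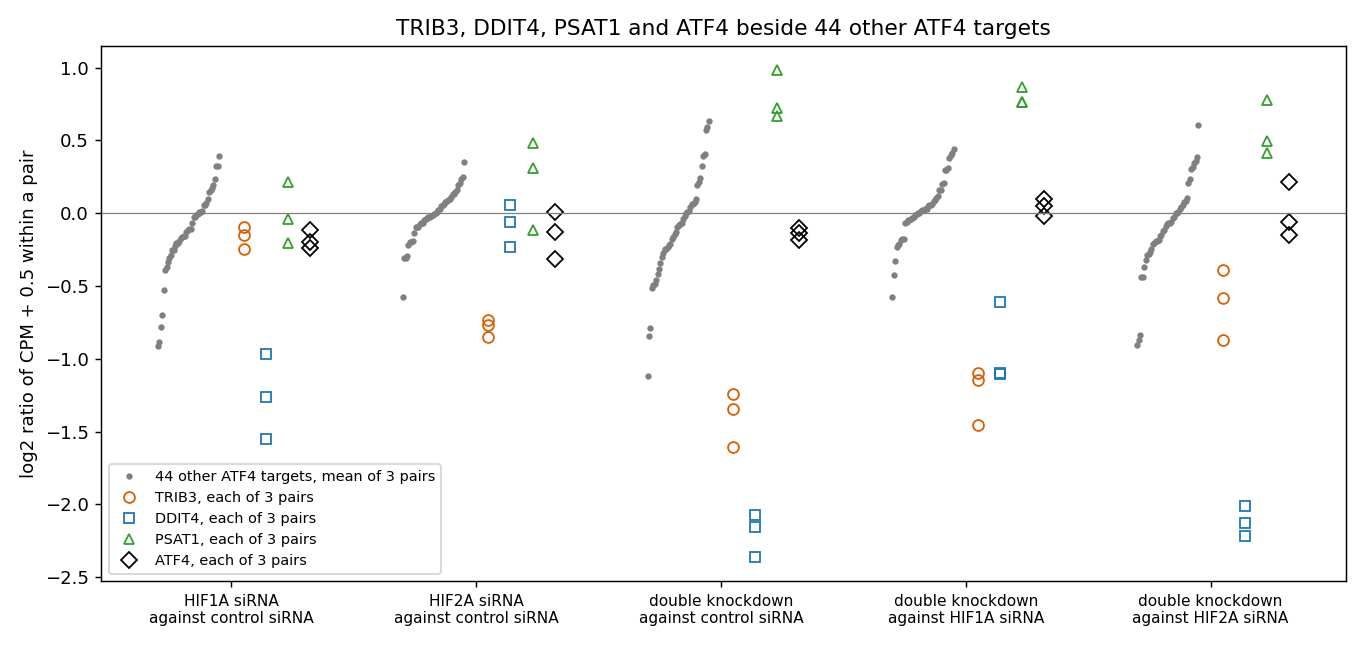
Log2 ratio of CPM + 0.5 within replicate pairs for 5 comparisons, with the 44 other ATF4 targets as sorted grey points (mean of 3 pairs) and TRIB3, DDIT4, PSAT1 and ATF4 as open symbols, 1 for each pair. In the double knockdown against control siRNA, the targets run from -1.12 (STC2) to 0.64 (GDF15), TRIB3 lies below -1.2 and DDIT4 below -2.0.

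Of the 44 targets, HIF1A siRNA against control siRNA called 3 lower and 0 higher, beside 1.17% of all genes: SHMT2 and GPT2, mitochondrial enzymes of serine and alanine metabolism, and STC2, a secreted glycoprotein. HIF2A siRNA against control siRNA called 0 of 44 with edgeR, beside 0.0857% of all genes, with 2 at an unadjusted p under 0.05 and 1 called by DESeq2. HIF1A siRNA against HIF2A siRNA called SHMT2 and GPT2 lower and SLC7A5, the light chain of the large neutral amino acid transporter, higher, beside 1.5% of all genes. In the double knockdown, 4 were lower (STC2, GPT2, SHMT2 and SLC7A1) and 2 higher (ATF5 and PYCR1) against control siRNA, 1 lower (SLC7A5) against HIF1A siRNA, and 3 lower (STC2, SHMT2 and GPT2) with 1 higher (SLC38A2) against HIF2A siRNA. The shares of all genes called in these 3 comparisons were 10.3%, 1.4% and 4%. The median log2 fold change of the 44 ran from -0.12 with HIF1A siRNA to 0.02 in the double knockdown against HIF1A siRNA. The list was written with earlier results known, and its counts are a description.

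SHMT2 was 425 to 437 CPM with control siRNA and 202 to 262 CPM with HIF1A siRNA, a log2 fold change of -0.88 (SE 0.11). It was 436 to 475 CPM with HIF2A siRNA and 227 to 281 CPM in the double knockdown. GPT2 changed by -0.78 (SE 0.13) with HIF1A siRNA and by -0.84 (SE 0.12) in the double knockdown against control siRNA, and STC2 by -0.70 (SE 0.12) and -1.13 (SE 0.11) in the same comparisons. SLC7A5 was 371 to 529 CPM with HIF2A siRNA, 630 to 755 CPM with control siRNA and 694 to 935 CPM with HIF1A siRNA. In the double knockdown SLC7A5 was lower than with HIF1A siRNA by a log2 fold change of -0.58 (SE 0.11, adjusted p = 0.0186, edgeR). SHMT2, GPT2 and STC2 were low in the conditions where DDIT4 was low. They were named for calls with HIF1A siRNA, and DDIT4 was taken as chosen for its fall with it. The likeness is therefore a description, and nothing is read from it. SLC7A5 was 443 to 603 CPM in the double knockdown, below every control library but not called against control siRNA. Its mean log2 ratio there was 0.235 against HIF2A siRNA.

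By class, the 13 tested genes of aminoacyl-tRNA synthetases and XPOT had 0 calls in every comparison with edgeR or DESeq2, 0 of them at an unadjusted p under 0.05, and medians between -0.12 and 0.02. Between siRNA conditions, 0.0857% to 10.3% of all genes were called. Among 11 tested enzymes of amino acid and one-carbon metabolism, SHMT2 and GPT2 were called lower and PYCR1 higher. Among 7 tested transporters, SLC7A1 was called lower and SLC38A2 higher. SLC7A5 was higher for HIF1A against HIF2A siRNA and lower in the double knockdown against HIF1A siRNA. Among 13 tested stress regulators and secreted factors, STC2 was called lower and ATF5 higher. ATF5, a paralog of ATF4, rose by 0.60 (SE 0.11, adjusted p = 0.00355, edgeR) in the double knockdown against control siRNA.

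Of 15 eIF2 kinase, eIF2 and eIF2B genes, 0 were called in any comparison with edgeR, with 4 at an unadjusted p under 0.05 and 1 called by DESeq2 in the double knockdown against control siRNA, where 3291 of 13000 genes had an unadjusted p under 0.05. Of 18 genes of the ATF6 and IRE1 arms, EDEM1, which helps clear misfolded glycoproteins, fell by 0.77 (SE 0.13, adjusted p = 0.00141, edgeR) in the double knockdown against control siRNA and was called lower against HIF2A siRNA. Of all genes, 10.3% and 4% were called in these comparisons, respectively. Among 14 tested genes of mTORC1 and its regulators, 2 were lower and 2 higher in the double knockdown against control siRNA, where 10.3% of 13000 genes were called. They were RPS6KB1 (-0.53, SE 0.12) and RHEB (-0.40, SE 0.10), a kinase downstream of mTORC1 and its activating GTPase, and AKT1S1 (0.48, SE 0.13) and NPRL3 (0.36, SE 0.10), both inhibitors of mTORC1, on the log2 scale. The other comparisons called 0 genes of that list with edgeR, with at most 4 at an unadjusted p under 0.05, and DESeq2 called 1 in the double knockdown against HIF1A siRNA.

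Textbook HIF-1 targets gave the scale of the HIF effect. Of 10, 9 were called lower with HIF1A siRNA against control siRNA and 0 with HIF2A siRNA (edgeR and DESeq2, 2 at an unadjusted p under 0.05). The double knockdown called 10 lower against control siRNA and 9 against HIF2A siRNA. In that order, the shares of all genes called were 1.17%, 0.0857%, 10.3% and 4%, and 1.4% in the double knockdown against HIF1A siRNA. The list was written with earlier results known, and its counts are a description. Against HIF1A siRNA the double knockdown called 2 lower: NDRG1 (-1.79, SE 0.19) and EGLN3 (-1.37, SE 0.13), beside the -0.96 of DDIT4. CA9, the carbonic anhydrase that marks HIF-1 activity, fell by 3.64 (SE 0.17) with HIF1A siRNA on the log2 scale.

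Replicate number and siRNA took very different shares of the variation of these genes. For TRIB3 the siRNA condition took 96.9% of the sum of squares of log2(CPM + 0.5) over the 12 libraries and for DDIT4 93.6%, with 1.08 and 4.73% for replicate number. PSAT1 (58.9%) and VLDLR (49.8%) were intermediate. For CHAC1, SESN2 and ASNS the replicate number took 91.0, 88.6 and 86.9%, and siRNA 2.13, 4.18 and 8.53%. Over 13000 genes the medians were 46.4% for replicate number and 19.2% for siRNA. TRIB3, DDIT4 and VLDLR were taken as chosen for a siRNA effect, so their shares are a description.

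**Figure D5:**
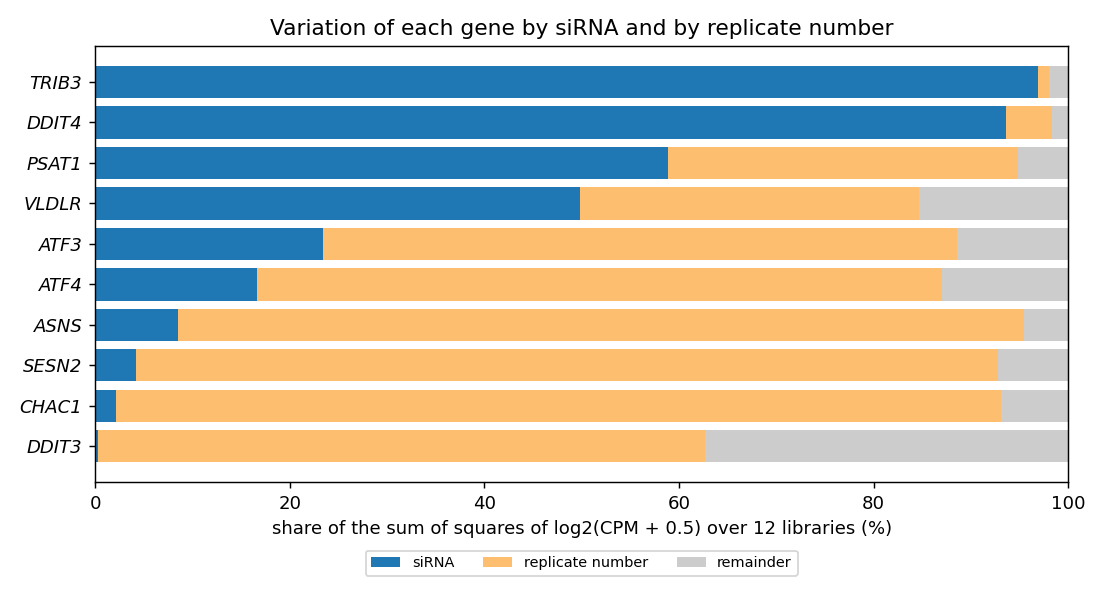
Shares (%) of the sum of squares of log2(CPM + 0.5) over 12 libraries taken by siRNA condition (blue), replicate number (orange) and the remainder (grey), ordered by the siRNA share. TRIB3 and DDIT4 lie over 90% for siRNA, and CHAC1, SESN2 and ASNS over 85% for replicate number.

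Likeness of pattern was measured by Pearson's r of log2(CPM + 0.5) over the 12 libraries, which share conditions, after the mean of each replicate number was subtracted, as a description. TRIB3 was most like ARL2BP (r = 0.993), STK39, CHST2, PAFAH1B2 and ABR (0.981 to 0.983). Each of these 5 had a negative log2 fold change with HIF2A siRNA (-0.75 to -0.29) and in the double knockdown (-1.66 to -0.53), and one within 0.09 of 0 with HIF1A siRNA. DDIT4 was most like ZNF395 (r = 0.991), WDR54, KCTD11, P4HA2 and TMEM45A (0.979 to 0.983), whose log2 fold changes were -1.34 to -0.67 with HIF1A siRNA and -2.06 to -1.08 in the double knockdown. The genes most like TRIB3 and DDIT4 were picked over these same libraries, so their fold changes follow from the pick. ATF4 was most like FAM216A (r = 0.949), ZFAND2A, LAMTOR5, TTC39C and IKBIP. The lists of 5 for TRIB3, DDIT4 and ATF4 held none of the 10 genes and none of the 48 listed ATF4 targets. With 5 places among 12999 genes, that absence says little. The nearest listed targets were STC2 to DDIT4 (rank 34), CEBPG to ATF4 (rank 21) and SLC7A1 to TRIB3 (rank 711).

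Among the 10, VLDLR was most like DDIT4 (r = 0.849), TRIB3 and DDIT4 had r = 0.614, and TRIB3 and PSAT1 ran opposite (r = -0.919). ATF4 was most like ASNS among the 10 (r = 0.713) and had r = 0.259 with TRIB3 and 0.363 with DDIT4. The median r with the 44 other ATF4 targets was 0.10 for TRIB3, 0.26 for DDIT4 and -0.04 for ATF4, beside -0.01, -0.02 and 0.01 with all genes. Within the 44, STC2 (0.953) and GPT2 (0.929) were most like DDIT4, SLC7A1 (0.737) and SLC7A5 (0.691) most like TRIB3, and CEBPG (0.844), a dimer partner of ATF4, most like ATF4. The most opposite were PYCR1 to DDIT4 (-0.817), ATF5 to TRIB3 (-0.89) and PSPH to ATF4 (-0.858). The r was above 0 for 28 of 44 with TRIB3, 28 with DDIT4 and 20 with ATF4.

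Per kilobase of the canonical transcript (GENCODE v44), the median control level was 346 CPM for ATF4, 92.9 for TRIB3, 74.6 for DDIT4, 28.2 for ASNS, 26.2 for PSAT1 and 20.0 for DDIT3. It was 11.3 for ATF3, 8.5 for VLDLR, 5.75 for SESN2 and 4.69 for CHAC1. The ranges of control libraries did not overlap between ATF4 and TRIB3. They overlapped between TRIB3 and DDIT4 (88.2 to 98.5 against 66.5 to 103), ASNS and PSAT1, PSAT1 and DDIT3, ATF3 and VLDLR, VLDLR and SESN2, and SESN2 and CHAC1.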

How the data were processed

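The 12 bulk libraries of RCC4 cells were used, and the single-cell data of the study were not analysed here. The deposited values are raw counts per gene symbol. According to the study's methods and submitters' processing notes, the authors trimmed reads with Trim Galore (0.3.3), aligned them to hg19 with HISAT2 (2.05), used Picard (2.0.1) and counted with HTSeq (0.5.4p3). Whether a directional library was counted by strand is not given in the sources used here.

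Counts were compared by edgeR's quasi-likelihood method (4.0.16, R 4.3.3), with TMM, the expression filter (minimum count 10, minimum total 15), replicate number as block and Benjamini-Hochberg adjustment over all genes tested; a call is an adjusted p under 0.05. The 9 libraries without the double knockdown were fitted together, and all 12 for the rest. CPM used totals scaled by TMM, and pair ratios added 0.5 CPM. The block follows the study's methods, which pair conditions by replicate; same-numbered libraries deviated together (r from 0.0991 to 0.813 across 13000 genes, other numbers -0.724 to 0.527). The study calls the replicates biological, and whether they were separate cultures is not otherwise stated, so p-values measure the spread between these samples. Members and lists were chosen with earlier results of these data known. Named list genes were at most 3 per list and comparison, with the largest change among calls in the same direction in all 3 pairs, plus the 5 most-alike genes; calls beyond 3 in a list are named only where a count of 5 or fewer is spelled out, chosen after their values were seen. Alternatives were DESeq2 (1.42.0) and its size factors, other filters, no block, other libraries in the fit, and leaving out replicates or libraries. The code was tested on simulated data.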

Additional observations from a re-analysis of the deposited data

How the results depend on the processing

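Without the replicate block the genes called were 0 with HIF1A siRNA, 0 with HIF2A siRNA and 0 for HIF1A against HIF2A siRNA, and in the double knockdown 2 against control siRNA, 1 against HIF1A siRNA and 1 against HIF2A siRNA. VLDLR in the double knockdown against HIF2A siRNA was then -0.73 on the log2 scale and not called. DESeq2 called 2 with HIF1A siRNA (DDIT4 and VLDLR) and 1 for the interaction (DDIT4), and the fit without a filter 2 with HIF1A siRNA. With only the 6 compared libraries in the fit, the double knockdown against HIF2A siRNA called 1 (DDIT4) and VLDLR was at -0.72, not called. Leaving out a replicate number or a library moved the count with HIF1A siRNA between 1 and 2, with HIF2A siRNA between 0 and 1, for HIF1A against HIF2A siRNA between 1 and 3, and for the double knockdown between 3 and 5 against control siRNA, 1 and 4 against HIF1A siRNA and 1 and 4 against HIF2A siRNA. VLDLR in the double knockdown against HIF2A siRNA ranged from -0.92 to -0.46 under these omissions. The double-knockdown values of TRIB3 (against HIF1A siRNA) and DDIT4 (against HIF2A siRNA) kept direction and call in all 21 settings. As descriptions, the call of TRIB3 with HIF2A siRNA was lost in 7 of 18 settings (log2 fold changes -0.82 to -0.72 over all settings). These were without the block, replicate number 1 or 3, control replicate 3, HIF1A replicate 2 or HIF2A replicate 1 or 3. That of TRIB3 for HIF1A against HIF2A siRNA was lost without the block, replicate number 1 or 3, any 1 of the HIF1A replicates or HIF2A replicate 1 or 3. That of VLDLR in the double knockdown against control siRNA was lost without the block, replicate number 1 or 3, control replicate 1 or double-knockdown replicate 1 or 2. VLDLR with HIF1A siRNA was called without control or HIF2A replicate 2. Over all genes, the fit without the block called 41, 1, 52, 195, 8 and 90 genes, DESeq2 called 236, 58, 329, 1842, 403 and 818, and the fit with other libraries 181, 26, 249, 2609, 656 and 164, for HIF1A, HIF2A and HIF1A against HIF2A siRNA and the double knockdown against control, HIF1A and HIF2A siRNA, respectively, against 150, 11, 193, 1336, 182 and 520 as reported. Without a filter HIF2A siRNA called 41, and the interaction 4. No log2 fold change of a called member changed sign. The cause of the lost calls was not tested, beyond the fewer libraries of some settings.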

Other observations

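Lists further from ATF4 were counted in the same fits (edgeR, adjusted p over all genes tested), as descriptions of lists written with earlier results known. The double knockdown called 10.3% of all genes against control siRNA, 1.4% against HIF1A siRNA and 4% against HIF2A siRNA. HIF1A siRNA called 1.17% and HIF2A siRNA 0.0857% against control siRNA, and HIF1A against HIF2A siRNA 1.5%. Of 6 tested lipoprotein receptors and ligands beside VLDLR, LRP1, a large endocytic receptor, fell by 0.73 (SE 0.14) on the log2 scale in the double knockdown against control siRNA and by 0.83 (SE 0.14) against HIF2A siRNA. LRP8, the nearest relative of VLDLR, fell by 0.47 (SE 0.14) in the double knockdown against control siRNA. The single siRNAs called 0 of these 6 against control siRNA, with 2 at an unadjusted p under 0.05 for HIF1A siRNA and 0 for HIF2A siRNA, and DESeq2 called 1 with HIF1A siRNA. Of 9 p53 response genes, FAS (-0.48, SE 0.12) and CDKN1A (-0.44, SE 0.11) were lower in the double knockdown against control siRNA, and 0 were called in the other comparisons, where DESeq2 called 1 (against HIF1A siRNA) and at most 3 had an unadjusted p under 0.05.

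Of 12 interferon-stimulated genes, DDX58, the sensor RIG-I, was lower in the double knockdown against control siRNA (-0.46, SE 0.14) and against HIF1A siRNA (-0.67, SE 0.14). Of all genes, 10.3% and 1.4% were called in these comparisons, respectively. The other comparisons called 0 of the 12 with edgeR or DESeq2, and at most 4 had an unadjusted p under 0.05. Against control siRNA, the median log2 fold change of the 12 was 0.24 with HIF1A siRNA, where 0 were below 0. It was -0.195 with HIF2A siRNA, where 11 were below 0, and 0.09 in the double knockdown, where 4 were. Of 4 tested genes of the tribbles and AKT list, 0 were called in any comparison with edgeR or DESeq2, with 2 at an unadjusted p under 0.05 in the double knockdown against control siRNA.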
